A study of Mus musculus with 6 samples.

Results

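Interferon-stimulated genes are the transcripts that cells switch on when interferons bind their receptors. They were described here in mouse T cells driven toward the IL-17-secreting TH17 state with or without glutamine. The set was a list of 40 symbols, whose rule matches names and sets no threshold on measured values. The list was nonetheless chosen with earlier results of these data known, so counts over it are descriptive. It was ordered by role into 7 signalling factors, 12 RNA and DNA sensors, 19 effectors and 2 antigen presentation genes. Of the 40, 38 had an array row that names that gene alone, out of 30701 genes tested. Ifi44 and Nlrc5 are not analysed here, Nlrc5 because its row also names a microRNA gene. Irf1 had 2 rows, and the row with the higher mean was used.

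The study measured 6 cultures of naive CD4 T cells, sorted as CD4+CD25-CD62L+CD44- cells, on Affymetrix GeneChip arrays. Of these, 3 were grown with glutamine and 3 without it. All 6 cultures were stimulated through CD3 and CD28 for 3 days in medium with 10% serum. Each received 20 ng/ml of both IL-23 and IL-6, and TGF-beta at 1.25 ng/ml. Each also held antibodies at 10 ug/ml that neutralize IL-12, IL-4 and IFN-gamma. The labels call the arrays biological replicates and name no animals, so the p-values describe how far these cultures spread, which may be technical.

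Type I interferons signal through the receptor chains IFNAR1 and IFNAR2 and the kinases JAK1 and TYK2 to a complex that holds STAT2 and IRF9. That complex binds a DNA element called the interferon-stimulated response element. IFN-gamma uses its own receptor, JAK1 and JAK2, and induces the factor IRF1. The induced genes encode sensors of foreign RNA and DNA, proteins that block viral replication, parts of MHC class I presentation, and brakes on the pathway itself. In T cells many of them are also expressed at a low tonic level without infection.

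Levels are log2 values as the authors deposited them. A difference is always the level without glutamine less the level with glutamine, averaged over the 3 arrays of each group and given with its standard error from limma, and a gene passed the test at a Benjamini-Hochberg adjusted p under 0.05 over all 30701 genes. The differences are not given as folds, since the deposited scale reaches above 16 log2 on every array, beyond what a 16-bit scanner can record. In bulk RNA, fewer cells of a type and less RNA per cell cannot be told apart. Of 8 measured T cell genes, Cd3d (0.88) and Cd5 (0.51) rose and Thy1 fell (-0.93), with adjusted p of 0.0174, 0.0118 and 0.00992 (limma). The other 5, Cd3e, Cd3g, Cd4, Cd2 and Cd28, did not pass, and the mean of all 8 lay between 14.31 and 14.47 with glutamine and between 14.46 and 14.53 without it.

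Without glutamine, 17 of the 38 genes fell and 1 rose, while 20 did not pass. The falls included the signalling subunit gene Stat2, the RNA sensor genes Eif2ak2, Ifih1 and Oas3 and the effector genes Trim30a and Ifit1. The riser was Zbp1, which encodes a sensor of nucleic acids in the left-handed Z form. Falls thus made up 44.7% of the members and rises 2.63%. Over all genes tested, 13.0% fell and 9.30% rose, 22.3% in either direction (limma). The median difference was -0.20 over the members and 0.060 over all genes. The difference was at least 1 log2 in 9 of the 17 falls and in the rise, against 2.84% and 1.24% of all genes. The groups did not overlap in 24 members, of which 21 were lower and 3 higher without glutamine. The shares over all genes were 43.8% in either direction, 18.8% lower and 25.0% higher.

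The call counts depended on the arrays that entered the fit. The number of falls was 11 without with-glutamine replicate 1 and 10 without with-glutamine replicate 2. It was 8, 9 and 10 without replicates 1, 2 and 3 of the cultures lacking glutamine. Rises numbered 3 without with-glutamine replicate 1, when Irf1 and Ifi35 passed beside Zbp1. After quantile normalization 20 members fell and 1 rose, and with the array medians set equal 21 fell and 1 rose, so neither scaling turned a called member's direction. Over all genes, 3989 fell and 2856 rose as deposited, while quantile normalization gave 5252 and 1454. Centring gave 6128 and 1216 and moved the median difference of all genes from 0.060 to -0.10. Of the 18 called members, 8 passed under all 15 alternatives run: Stat2, Parp9, Dtx3l, Eif2ak2, Ifih1, Oas3 and Trim30a as falls and Zbp1 as the rise.

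**Figure D1:**
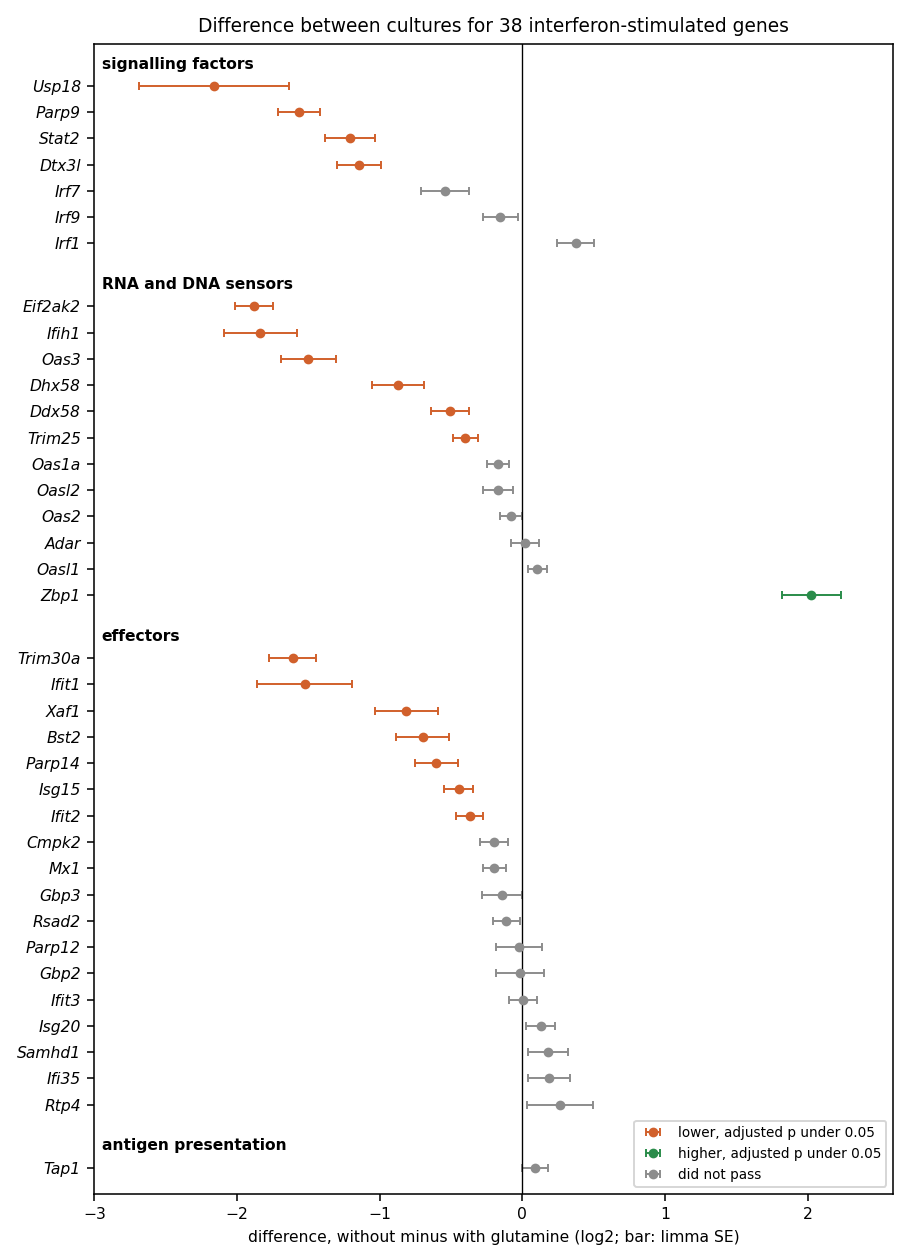
The horizontal axis is the difference without minus with glutamine in log2, one dot per gene with its limma standard error as a bar, grouped by role. The 17 genes that fell span every role with more than 1 measured gene, and Zbp1, at 2.03, stands alone on the right.

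The response element is shown first, because its core letters are shared by many of the genes that fell. The core was taken as GAAA, any 2 bases and GAAA again, and was searched on both strands from 250 bases before to 50 after the start sites in RefSeq's GRCm38.p6, where matches may overlap each other. Of the 38 measured genes, 30 matched a window by symbol. The windows of Usp18, Parp9, Zbp1, Oas2, Dhx58, Mx1, Parp14 and Rtp4 were not analysed here. A match was found for 14 of the 30 genes, against 3.99% of 27025 genes in the table and 3.44% of its 32851 windows. The list was made of interferon-stimulated genes, so a higher share than in the table says nothing about glutamine. Among the 13 genes that fell and had a window, 9 held a match, and among the 17 that did not pass, 5 did. The matches below are those of the 9 genes that fell, each on the gene's own strand with the matching bases in capitals. A TTTC pair is the same core read from the other strand.
Stat2, chr10:128270266-128270295, plus strand: cgcaccctggTTTCAGTTTCctttccctag
Oas3, chr5:120777715-120777744, minus strand: gcagggaggaGAAAACGAAAgtgaagggag
Eif2ak2, chr17:78882535-78882564, minus strand: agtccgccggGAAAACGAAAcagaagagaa
Ifih1, chr2:62646206-62646233, minus strand: gaagagaatcGAAACAGAAAccgatctg
Ddx58, chr4:40239804-40239833, minus strand: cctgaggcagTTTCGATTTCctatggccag
Isg15, chr4:156200871-156200900, minus strand: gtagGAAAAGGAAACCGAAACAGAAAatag
Ifit1, chr19:34640785-34640813, plus strand: TTTCACTTTCcagtctcagTTTCAGTTTC
Bst2, chr8:71537580-71537609, minus strand: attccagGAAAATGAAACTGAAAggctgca
Trim30a, chr7:104465210-104465239, minus strand: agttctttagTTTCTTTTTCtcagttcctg

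Isg15 held 3 overlapping matches, Bst2 held 2 overlapping ones and Ifit1 held 2 separate ones, while the other 6 had 1 in the stretch shown. Eif2ak2 and Oas3 shared the same 10 letters, as capitals show. The matches began before the start site in Stat2 (222 bases), Bst2 (130), Ifit1 (104), Isg15 (78), Oas3 (75) and Trim30a (36), and after it in Ifih1 (32 bases), Eif2ak2 (18) and Ddx58 (2). Trim30a has a further start site in the table, whose window also held a match. For comparison, 5 members held matches too but did not pass the test. Oas1a and Gbp3, not shown, each held 2 overlapping matches, and the others are given below.
Gbp2, chr3:142620594-142620623, plus strand: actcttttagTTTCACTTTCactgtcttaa
Ifit3, chr19:34583373-34583416, plus strand: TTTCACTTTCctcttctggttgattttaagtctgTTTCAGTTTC
Rsad2, chr12:26456553-26456582, minus strand: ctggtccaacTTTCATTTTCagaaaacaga

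Genes with a match differed in response. Ifit1 and Ifit3 carry the same pair of cores, TTTCACTTTC and TTTCAGTTTC, but Ifit1 fell by 1.53 and Ifit3 differed by 0.005. Gbp2 holds the first of these cores and differed by -0.02. Ifit1 and Ifit3 both stood near the median level of all genes, 4.68, with means of 4.79 and 4.73 over the 6 arrays. Ifit3b, outside the members, differed by -0.48 and did not pass (adjusted p = 0.0772, limma). Whether the changes of these genes differ from each other was not tested. The 14 members with a match had a median difference of -0.60, with 9 falls, and the 16 members without one had a median of -0.09, with 4 falls. Over the 18264 tested genes with a window, 17.8% of 702 genes with a match fell and 15.7% of 17562 without one fell. The 702 include the members, and with these left out 16.9% of 688 genes with a match fell. A core of the STAT-binding GAS element, TTCNNNGAA, was found for 9 of the 30 members and for 9.55% of the genes in the table. It was found for 3 of the 13 members that fell and for 6 of the 17 that did not pass. The 250 bases before the start are given for Stat2, whose product is part of the factor that binds the element, and for Oas3, the sensor gene that fell and had its match before the start.
Stat2, chr10:128270248-128270497, plus strand: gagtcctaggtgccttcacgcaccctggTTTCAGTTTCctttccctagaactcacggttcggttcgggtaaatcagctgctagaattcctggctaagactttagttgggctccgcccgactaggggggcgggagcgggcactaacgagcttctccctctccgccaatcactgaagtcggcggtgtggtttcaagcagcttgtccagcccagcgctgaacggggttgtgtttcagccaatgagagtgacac
Oas3, chr5:120777660-120777909, minus strand: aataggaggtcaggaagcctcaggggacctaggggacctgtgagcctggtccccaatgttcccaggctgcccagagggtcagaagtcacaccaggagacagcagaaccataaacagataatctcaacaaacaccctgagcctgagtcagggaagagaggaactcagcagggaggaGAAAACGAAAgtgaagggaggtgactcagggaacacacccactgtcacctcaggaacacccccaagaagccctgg

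Among the 7 signalling factors, 4 fell, none rose and 3 did not pass, with a median difference of -1.14. Leaving out 1 array gave 3 to 5 falls. For this role and those below, the shares over all genes tested were 13.0% lower and 9.30% higher. Among genes above the median level they were 24.9% and 13.7%. Stat2, which joins IRF9 in the factor that reads the response element, stood at 9.83, 9.94 and 9.34 on the 3 arrays with glutamine and at 8.29, 8.52 and 8.67 on those without. Every array without glutamine lay below every array with it, and the difference was -1.21 ± 0.18 (SE, adjusted p = 0.00481, limma). Irf9, which encodes the DNA-binding subunit of the same factor, was 7.98 ± 0.24 with glutamine and 7.83 ± 0.04 without it (SD, n = 3), a difference that did not pass (adjusted p = 0.405). The subunit genes thus differed in their calls, but the difference between their changes was not tested.

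Parp9 and Dtx3l encode partners in a complex in which DTX3L is the ubiquitin ligase. Parp9 stood at 9.70, 9.67 and 9.31 with glutamine and at 7.77, 8.15 and 8.07 without it. Dtx3l stood at 10.32, 10.26 and 9.87 with glutamine and at 8.80, 9.20 and 9.03 without it. Neither gene's groups overlapped, and the differences were -1.57 ± 0.15 for Parp9 and -1.14 ± 0.15 for Dtx3l (SE; adjusted p = 0.000951 and 0.00373, limma).

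Usp18 encodes the protease that removes the ubiquitin-like ISG15 from proteins and also holds back signalling at the type I receptor. It had the widest spread of all members, with 7.91, 6.41 and 5.63 on the arrays with glutamine and 4.29, 4.58 and 4.59 on those without. The groups did not overlap, and with-glutamine replicate 1 lay further above replicate 3 of its own group than replicate 3 lay above the arrays without glutamine. The difference was the largest among the members at -2.16 ± 0.53, but its adjusted p was only 0.0298 (limma). That call was lost without with-glutamine replicate 2 and without each array lacking glutamine, and over the alternatives its adjusted p ranged from 0.00971 to 0.0877.

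The 3 interferon regulatory factor genes among the members, Irf1, Irf7 and Irf9, did not pass. Irf7, which amplifies type I interferon production, was 4.85 ± 0.31 with glutamine and 4.31 ± 0.17 without it (SD, n = 3; adjusted p = 0.061, limma). It passed after quantile normalization, after centring, with array weights and without with-glutamine replicate 3. Irf1, a factor induced by IFN-gamma, was 8.38 ± 0.19 with glutamine and 8.75 ± 0.18 without it (adjusted p = 0.0886), and its dimmer row differed by 0.15. Irf1 passed as a rise when with-glutamine replicate 1 was left out.

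**Figure D2:**
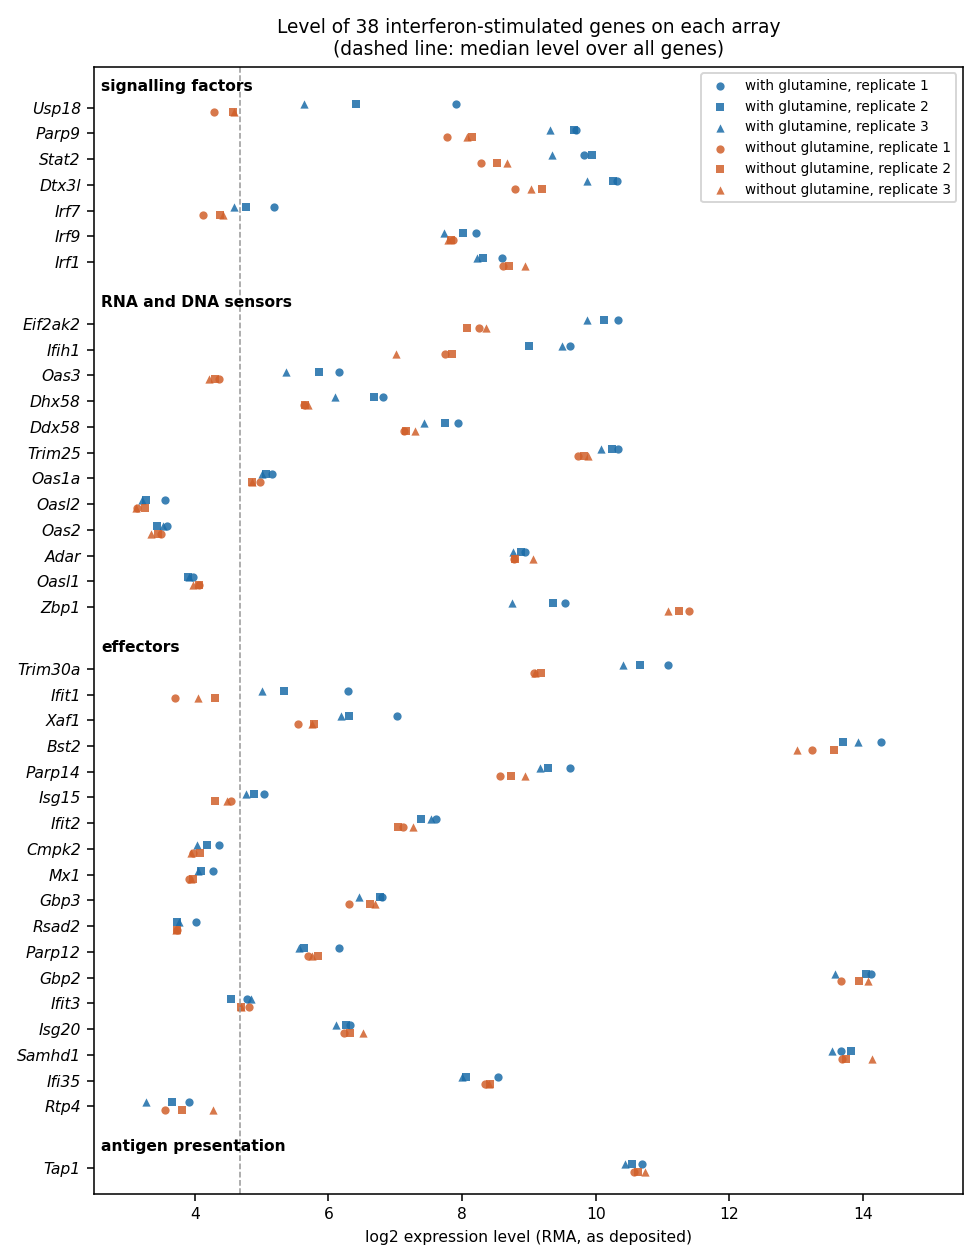
The horizontal axis is the log2 level of each of the 38 genes on each array, blue with glutamine and orange without, with a marker shape for each replicate number and a dashed line at the median level over all genes, 4.68. Stat2, Parp9, Eif2ak2, Ifih1 and Trim30a show separate blue and orange groups, while Gbp2, Samhd1 and Tap1 overlap.

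Of the 12 RNA and DNA sensors, 6 fell, 1 rose and 5 did not pass, with a median difference of -0.29. Only 3 fell without with-glutamine replicate 2 or without-glutamine replicate 1 or 2. Eif2ak2, which encodes PKR, a kinase that halts translation when it binds paired RNA strands, stood at 10.33, 10.13 and 9.87 with glutamine and at 8.25, 8.08 and 8.36 without it. The groups lay far apart, and the difference of -1.88 ± 0.14 had the lowest adjusted p of the members (0.000394, limma). Ifih1, which encodes the long-RNA sensor MDA5, stood at 9.62, 9.0 and 9.49 with glutamine and at 7.74, 7.85 and 7.01 without it. It fell by 1.84 ± 0.26 (SE, adjusted p = 0.00429), and without-glutamine replicate 3 was its lowest array.

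Oas3 encodes an oligoadenylate synthetase, an enzyme that makes the activator of the RNA-cleaving RNase L. It stood at 6.16, 5.86 and 5.37 with glutamine and at 4.36, 4.31 and 4.22 without it. The mean fell from 5.80 ± 0.40 to 4.30 ± 0.07 (SD, n = 3; adjusted p = 0.00302, limma), and all 3 arrays without glutamine were below the median level of all genes, 4.68. The other oligoadenylate synthetase family genes among the members did not pass: Oas1a differed by -0.17, Oas2 by -0.08, Oasl2 by -0.17 and Oasl1 by 0.10. Oas2, Oasl1 and Oasl2 were below the median level on every array, with means between 3.17 and 4.04. After quantile normalization and after centring, Oas1a passed as a fall. Of its relatives outside the members, Oas1c fell (-0.42, adjusted p = 0.0494, limma), while Oas1b (0.09) and Oas1g (-0.05) did not pass. Oas1a has closely related copies in the genome, and whether the row tells them apart was not tested.

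The remaining sensor falls were each under 1 log2. Dhx58, which encodes LGP2, a regulator of RIG-I and MDA5, fell from 6.54 ± 0.38 to 5.66 ± 0.03 (SD, n = 3). Ddx58, the gene of RIG-I itself, fell from 7.70 ± 0.25 to 7.20 ± 0.08, and Trim25, a ubiquitin ligase that acts on RIG-I, fell from 10.22 ± 0.13 to 9.82 ± 0.08. Their adjusted p values were 0.0171, 0.0384 and 0.0208 (limma), and each call was lost under several alternatives, including those that left out with-glutamine replicate 2 or without-glutamine replicate 1 or 2. Adar, which edits adenosines in paired RNA and so limits MDA5 activation, was 8.86 ± 0.09 with glutamine and 8.88 ± 0.16 without it, a difference of 0.02 ± 0.10 (SE).

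Zbp1 ran against every other called member. Its product senses Z-form nucleic acids and can start necroptosis. It stood at 9.54, 9.36 and 8.75 with glutamine and at 11.40, 11.24 and 11.09 without it. The lowest array without glutamine was above the highest array with it, and the rise was 2.03 ± 0.21 (SE, adjusted p = 0.00135, limma). Zbp1 rose by 1.79 to 2.19 over the alternatives and passed in each of them.

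Of the 18 measured effectors, 7 fell, none rose and 11 did not pass, with a median difference of -0.17. The falls numbered 3 or 4 without with-glutamine replicate 1 or 2, and 2, 3 and 3 without replicates 1, 2 and 3 of the cultures lacking glutamine. With all 6 arrays, falls made up 38.9% of the effectors, 13.0% of all genes tested and 24.9% of those above the median level. Trim30a, a member of the tripartite motif family that restrains inflammatory signalling, stood at 11.08, 10.66 and 10.41 with glutamine and at 9.07, 9.18 and 9.09 without it. It fell by 1.61 ± 0.17 (SE, adjusted p = 0.00137, limma), and its arrays without glutamine were nearly equal. Ifit1, whose product binds RNA that lacks host-type cap methylation, stood at 6.30, 5.34 and 5.01 with glutamine and at 3.71, 4.31 and 4.05 without it. Its groups did not overlap, but the spread was wide, and the difference of -1.53 ± 0.33 (SE, adjusted p = 0.0206, limma) was not called without without-glutamine replicate 1 or 3.

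Smaller falls were seen for Xaf1, an apoptosis-promoting gene (-0.81), Bst2, which encodes the virus-tethering protein tetherin (-0.70), and Parp14, an ADP-ribosyltransferase gene (-0.60). Isg15, the ubiquitin-like modifier, fell from 4.89 ± 0.14 to 4.45 ± 0.13 and Ifit2 from 7.51 ± 0.12 to 7.15 ± 0.12 (SD, n = 3). Adjusted p for these 5 genes lay between 0.0235 and 0.0415 (limma), and each lost its call when some arrays were left out. Isg15 lost its call without with-glutamine replicate 1 or 2 or without-glutamine replicate 2 or 3.

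The brightest effector did not differ between the groups beyond its spread. Gbp2, a guanylate-binding protein gene, stood at 14.12, 14.04 and 13.58 with glutamine and at 13.67, 13.94 and 14.08 without it. These groups overlapped, with a difference of -0.02 ± 0.17 (SE, adjusted p = 0.954, limma). Samhd1, which encodes an enzyme that degrades deoxynucleotides, was 13.68 ± 0.14 with glutamine and 13.86 ± 0.24 without it (SD, n = 3; adjusted p = 0.386). The other 9 effectors that did not pass, Gbp3, Parp12, Isg20, Ifi35, Ifit3, Mx1, Rsad2, Cmpk2 and Rtp4, differed by -0.20 to 0.26. Among them Mx1, Rsad2, Cmpk2 and Rtp4, all genes of strong interferon responses, had group means between 3.62 and 4.2, below the median level of all genes. Isg15, whose means lay on either side of that level, did pass.

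Most members were well above the dim end of the arrays. By the mean over all 6 arrays, 29 of the 38 members were above the median level, and 16 of these fell and 1 rose. Of all genes above the median level, 24.9% fell and 13.7% rose. Among members above that level, 4 of 6 signalling factors, 6 of 9 sensors and 6 of 13 effectors fell.

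Of the antigen presentation pair, Tap1 was measured. Tap1 encodes a chain of the transporter that loads peptides for MHC class I. It stood at 10.70, 10.54 and 10.44 with glutamine and at 10.57, 10.63 and 10.74 without it, and the groups overlapped (difference 0.09 ± 0.09, SE, adjusted p = 0.511, limma).

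The members varied together between the arrays with glutamine. With-glutamine replicate 1 was the highest array of its group for 35 of the 38 members (92.1%), against 40.4% of all genes tested and 46.7% of genes above the median level. With-glutamine replicate 3 was the lowest for 31 members (81.6%), against 39.1% and 47.5%. The median deviation of the members from their group mean was 0.21 log2 on replicate 1, -0.02 on replicate 2 and -0.20 on replicate 3. The pattern was present both in the 17 members that fell, 16 of which were highest on replicate 1, and in the 20 that did not pass, 18 of which were. Among 47 other measured interferon-stimulated genes, described further on, 39 were highest on that array.

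Without glutamine the spread of most members was smaller. The SD was larger with glutamine than without it in 31 of 38 members (81.6%), against 50.9% of all genes and 56.4% of genes above the median level. The median SD of the members was 0.23 with glutamine and 0.13 without it, while over all genes it was 0.11 in each group. A shared order was also present without glutamine, where without-glutamine replicate 1 was the lowest array of its group for 23 of 38 members (60.5%), against 31.7% of all genes and 22.7% of genes above the median level. Replicate 3 was the highest for 17 (44.7%), against 28.6% and 26.9%. The members are therefore not independent replicates of the comparison. The labels name no batch, so none was tested.

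**Figure D3:**
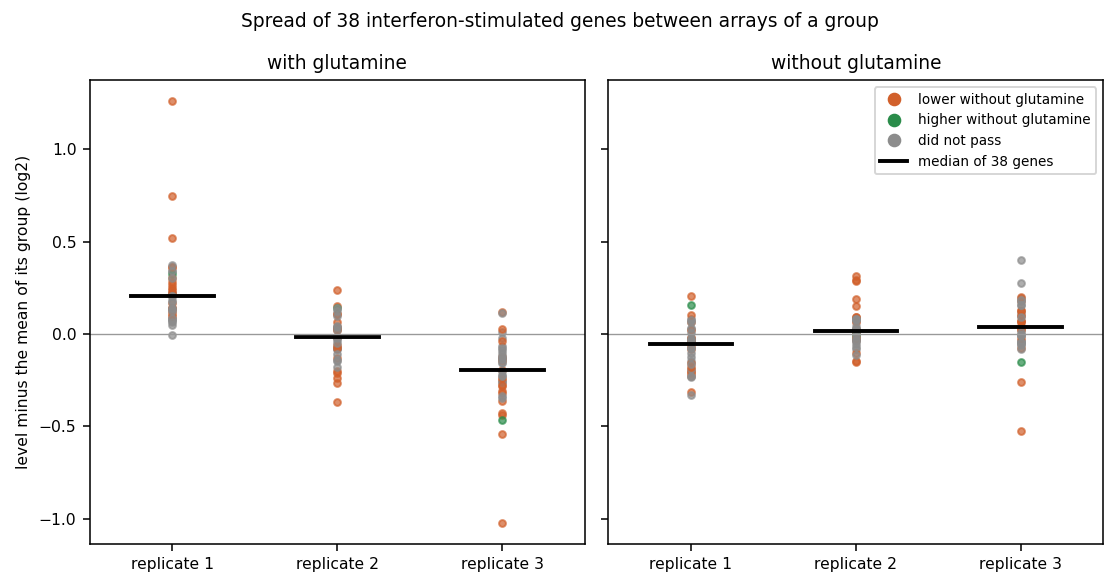
The vertical axis is each gene's log2 level minus the mean of its group, for the 3 arrays with glutamine (left) and the 3 without (right), with a black bar at the median of the 38 genes. The members sit mostly above 0 on with-glutamine replicate 1 (median 0.21) and mostly below 0 on replicate 3 (median -0.20).

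Genes of other cell types gave the following levels beside these results. Over 5 dendritic cell genes the mean level lay between 3.65 and 3.69 with glutamine and between 3.59 and 3.70 without it, and none of the 5 passed. Over 7 macrophage and monocyte genes it lay between 4.55 and 4.75 and between 4.55 and 4.76, with Lyz2 lower (-1.66) and Cd68 higher (1.58) without glutamine, while Csf1r, Adgre1, Itgam and Fcgr1 stood below 4.68 on every array. Among the arrays with glutamine, Lyz2 was highest on replicate 1, at 6.18 against 5.59 and 5.64, as were Cd68 and Mpeg1. Csf1r and Fcgr1 were lowest on that array, and Itgam and Adgre1 were highest on replicate 3. Over all genes tested, 40.4% were highest on with-glutamine replicate 1. Over 4 plasmacytoid dendritic cell genes the mean lay between 4.97 and 5.00 and between 5.26 and 5.33, with Tcf4 higher (1.06) and Klk1 and Siglech not called. Over 5 B cell genes it lay between 4.64 and 4.74 and between 4.26 and 4.33, with Ebf1 lower (-2.14) and Cd79a and Ms4a1 not called. Of 3 NK cell genes none passed, and Cd8b1 fell by 0.71 while Cd8a stood below 4.68 on every array. The part of these genes in the results was not tested.

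Upstream of the members, the gene of IFN-gamma rose, and a receptor gene each of type I interferon and IFN-gamma fell. These are transcript levels, in cultures that all held antibodies neutralizing IFN-gamma. Of 9 interferon ligand genes, 2 rose, 1 fell and 6 did not pass. For this list and those that follow, the shares over all genes tested were 9.30% higher and 13.0% lower. Above the median level they were 13.7% and 24.9%. Ifng, which encodes IFN-gamma, stood at 5.92, 5.43 and 5.30 with glutamine and at 7.89, 7.87 and 6.83 without it, a rise of 1.98 ± 0.31 (SE, adjusted p = 0.00667, limma). Ifnb1, the gene of interferon beta, fell by 0.25 from 4.02 ± 0.05 (SD, n = 3), and Ifnk rose by 0.44 from 3.46 ± 0.11, both within the dim range below 4.68 and each losing its call in 5 or more alternatives. The interferon alpha genes Ifna1, Ifna2 and Ifna4 did not pass, and Ifna2 and Ifna4 stood below 4.68 on every array.

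Of 6 receptor genes, 2 fell, none rose and 4 did not pass, and 1 fell when any array other than with-glutamine replicate 3 was left out. Ifngr1, the ligand-binding chain for IFN-gamma, fell from 10.27 ± 0.38 to 9.24 ± 0.18 (SD, n = 3; adjusted p = 0.013, limma). Ifnar1, a chain of the type I receptor, fell from 11.13 ± 0.16 to 10.73 ± 0.03 (adjusted p = 0.027, lost in 7 of 15 alternatives). Ifnlr1 (0.07) and Il10rb (-0.20), the chains of the interferon lambda receptor, did not pass. Ifnar2 and Ifngr2, the partner chains, differed by 0.14 and -0.23 and did not pass as deposited, but Ifngr2 passed after centring.

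The kinase genes did not pass. Jak2 was 15.53 ± 0.11 with glutamine and 15.79 ± 0.12 without it (SD, n = 3), and its groups did not overlap (adjusted p = 0.0948, limma). Jak1 was 13.55 ± 0.03 with glutamine and 13.59 ± 0.04 without it, and Tyk2 8.36 ± 0.06 and 8.53 ± 0.14 (SD, n = 3; adjusted p = 0.692 and 0.221, limma). In the list of 7 measured kinases and factors, Irf8 rose by 0.86 and Irf5 fell by 0.51, and the other 5 did not pass. Of 5 negative regulators, the phosphatase genes Ptpn6 (-0.72) and Ptpn2 (-0.58) fell and 3 did not pass. Among those 3, Socs1, which is itself induced by interferons, was 8.82 ± 0.29 with glutamine and 8.64 ± 0.14 without it. Of 10 sensing adaptor genes, Cgas, the sensor of cytosolic DNA, fell by 0.93 and Tbk1, the kinase that activates IRF3, fell by 0.80. The related kinase gene Ikbke rose by 0.93, and 7 adaptor genes did not pass.

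Interferon-stimulated genes outside the list of 40 also fell more often than they rose. They too were listed with earlier results of these data known, so they are not independent support. Of 47 measured, 17 fell (36.2%), 2 rose (4.26%) and 28 did not pass, with a median difference of -0.36. Above the median level stood 42 of the 47, of which 16 fell and 2 rose. Of all genes above that level, 24.9% fell and 13.7% rose. The falls were led by the membrane virus-restriction gene Ifitm2, which went from 12.56 ± 0.05 to 10.47 ± 0.38 (SD, n = 3), and its neighbour Ifitm3, which went from 6.33 ± 0.46 to 4.52 ± 0.20. Herc6, a ligase gene for ISG15, fell from 9.30 ± 0.08 to 7.65 ± 0.08 (adjusted p = 0.000106, limma). Slfn1 fell by 1.53, a call lost in 6 of 15 alternatives. The genes that rose were Sp110 (0.998) and Pml (0.95), both of nuclear bodies, and they were named after their values were seen. The falls in this list numbered 11 without with-glutamine replicate 1 or 2, and 9 and 10 without replicates 1 and 2 of the cultures lacking glutamine.

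Genes typical of IFN-gamma responses, likewise listed with earlier results known, included more falls than rises. Of 13 measured, 8 fell, none rose and 5 did not pass, with a median difference of -0.40. The Ifng transcript rose, but every culture held antibodies that neutralize IFN-gamma, and whether the rise changed signalling was not tested. Above the median level stood 9 of the 13, of which 7 fell, against 24.9% of all genes above that level. Gbp4 fell from 12.08 ± 0.19 to 10.77 ± 0.24 (SD, n = 3; adjusted p = 0.002, limma), and Gbp7 differed by -1.27, a call lost without without-glutamine replicate 1. The GTPase genes Irgm2 (-1.25) and Irgm1 (-1.15), which act on vacuoles that hold microbes, fell as well. Within the guanylate-binding family the members Gbp2 and Gbp3 did not pass, and the difference from Gbp4 and Gbp7 was not tested.

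Of 12 MHC class I presentation genes, 3 fell, none rose and 9 did not pass, with a median difference of -0.28. All 12 were above the median level, and their share of falls, 25%, was near the 24.9% of all genes above that level. The immunoproteasome subunit genes Psmb8 (-1.20) and Psmb9 (-0.64) and the peptide-editing gene Tapbpl (-0.94) fell. B2m, the light chain of MHC class I, was 18.45 ± 0.04 with glutamine and 18.52 ± 0.05 without it (adjusted p = 0.443). The Psmb9 call was lost in 5 of 15 alternatives. The falls in this list numbered 2 without with-glutamine replicate 2 or any 1 array lacking glutamine, 6 without with-glutamine replicate 3 and 8 after centring.

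**Figure D4:**
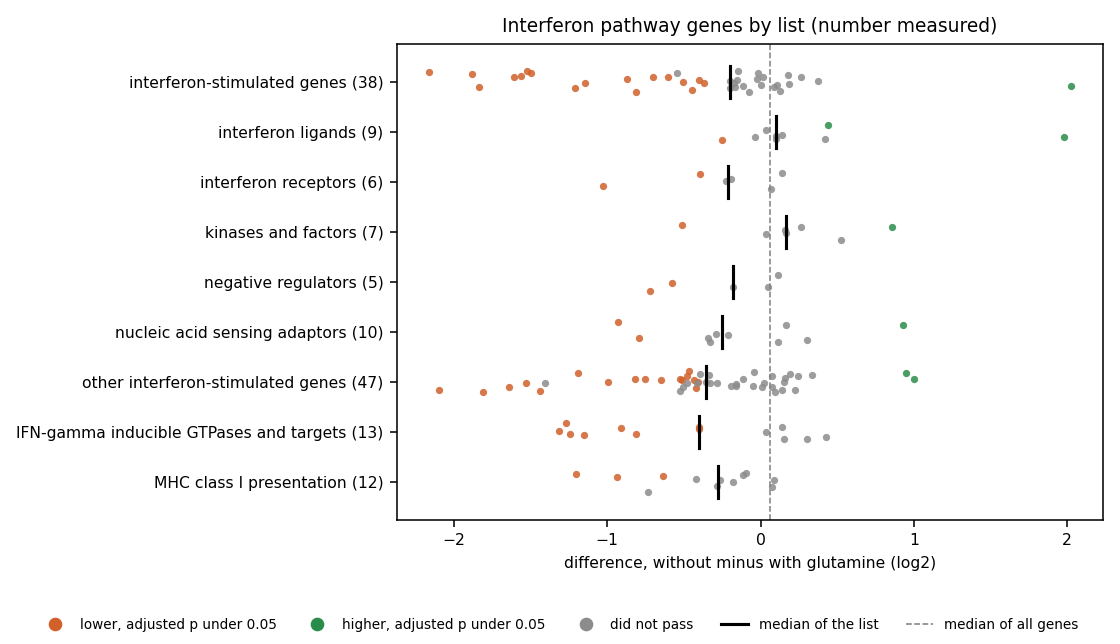
The horizontal axis is the difference without minus with glutamine in log2, one dot per gene, for the 38 members and 8 lists of related genes, with a black bar at each list's median and a dashed line at the median of all genes, 0.060. Falls extend to -2.16 among the members and -2.10 among the other interferon-stimulated genes, while Ifng (1.98) stands at the right of the ligands.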

How the data were processed

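The values in each array's column are deposited log2 levels per row, which the authors made with RMA and the Transcriptome Analysis Console version 4.0, as the submitters' processing notes name them. RMA corrects background, normalizes arrays and summarises probes. Its options and the genome build: not given in the sources used here. Array medians lay between 4.18 and 4.38 log2, and 695 to 887 rows per array exceeded 16. Of 65956 rows, 31258 named 1 gene, 1492 several and 33206 none here. Symbols followed the RefSeq gene table of GRCm38.p6, and the row with the highest mean stood for a symbol.

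A linear model without covariate or filter (limma 3.58.1 in R 4.3.3, lmFit, eBayes) compared the groups two-sided, with Benjamini-Hochberg adjustment over 30701 genes. The fit was tested on simulated data. Figures used matplotlib 3.10.9. The number of arrays limits precision. Members and lists were chosen with earlier results of these data known. Per-array values are given for members past the threshold by at least 1 log2, and for the largest difference and highest mean in each role. Outside the members, a fixed set of pathway genes and up to 4 called genes per list are named, and the cell type genes named were chosen after their values were seen. Alternatives were quantile normalization, median centring, genes above the median level, other rows per symbol, array weights, a trended and robust fit, a stricter threshold of 0.01, a replicate block and leaving out each array.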

Additional observations from a re-analysis of the deposited data

How the results depend on the processing

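Of 38 members, none changed direction of a call under the 15 alternatives, 8 of 18 called members passed under each, 10 lost the call under at least 1, and 6 of 20 others gained one. Over all genes, 1454 rose after quantile normalization, and after median centring 1216 rose and 6128 fell. At an adjusted p under 0.01 (limma), 801 genes rose and 2143 fell, and 7 members fell. Leaving out 1 array gave 8 to 16 falls and 1 to 3 rises among the members, and 1395 to 2491 rises over all genes. The falls were 11 without with-glutamine replicate 1, 10 without with-glutamine replicate 2, and 8, 9 and 10 without replicates 1, 2 and 3 lacking glutamine. A pairing of same-numbered arrays was not seen: their deviations correlated at 0.066, -0.234 and 0.276, and not every array correlated best with its own number. Deviations from a mean of 3 arrays cannot exclude pairing. With the replicate block, 12 members fell and 1 rose. Dim rows limit what can be called for 9 members below the median level.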
